A study of Mus musculus with 16 samples.

Results

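The loss of dystrophin in muscle that lacks the microRNA miR-133b was examined by comparing 4 mdx/miR-133b-/- libraries with 4 miR-133b-/- libraries over all 831 genes of the deposited table. The 8 libraries are part of a series of 16, and the other 8 come from mdx and Control muscle. RNA was sequenced from whole tibialis anterior, a muscle of the lower leg, of mice at postnatal day 30. The miR-133b-/- animals lack miR-133b and carry dystrophin, and the mdx/miR-133b-/- animals carry the mdx mutation of Dmd as well, so the groups compared share the loss of miR-133b. The mdx animals carry the mdx mutation alone, and Control animals are wild type. The labels used here do not give the strain, the sex, the time of day of collection or the extent of the miR-133b deletion.

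Dystrophin is a protein of the muscle fibre that links the actin cytoskeleton to a membrane complex and, through laminin, to the matrix outside the fibre. Without it fibres are damaged by contraction, and in the limb muscles of young mdx mice, a model of Duchenne muscular dystrophy, dead fibres are cleared by invading macrophages and replaced by regenerating fibres. miR-133b belongs to the microRNAs of striated muscle and shares its locus with miR-206. A microRNA pairs with its targets mainly through the seed, bases 2 to 8 of the mature strand, and lowers their RNA or its translation.

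The mature strands from the targeted locus are shown because the long non-coding RNA with the highest fold of the comparison spans them. They are taken from RefSeq (build GRCm38.p6, chromosome 1, plus strand), 5′ to 3′, with the seed in capitals.
miR-133b-3p: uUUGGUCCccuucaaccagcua
miR-133b-5p: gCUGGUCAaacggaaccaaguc
miR-206-3p: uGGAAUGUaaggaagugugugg
The seeds of miR-133b-3p and miR-206-3p differ, so the strands belong to separate seed families. The miR-133b hairpin lies at 20682769 to 20682887, and that of miR-206 at 20679010 to 20679082.

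Neither microRNA is listed, nor are Dmd and its relative Utrn, and none of them was analysed here. One listed gene spans the locus: Gm28653 (chromosome 1, 20669882 to 20684298), a long non-coding RNA whose start is that of Lincmd1 in RefSeq (20669882 to 20682958). Lincmd1 is a muscle RNA that is known to host miR-133b. The miR-133b hairpin lies inside an annotated exon of Gm28653 (20682713 to 20682958). Its scaled reads were 43, 35.7, 6.62 and 18.5 in the 4 miR-133b-/- libraries and 502, 294, 439 and 541 in the mdx/miR-133b-/- libraries, in the order of replicates 1 to 4. Each mdx/miR-133b-/- library lay above each miR-133b-/- library, with the lowest value in miR-133b-/- replicate 3, and the log2 fold change was 4.29 (SE 0.47). In Control its scaled reads were 20.01, 72.6, 67.3 and 39.6, and in mdx 289.8, 526, 485 and 241, where it rose by 3.01 (SE 0.47, adjusted p = 6.6e-05). The difference between these effects was 1.28 (SE 0.66, adjusted p = 0.269). The files give reads per gene and not per exon, so the level of Gm28653 does not check the deletion of miR-133b.

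Each deposited value is a read count multiplied by a factor of its library, called scaled reads here. Each library holds between 2356990 and 6000033 reads in listed genes, and its full depth is unknown. Ckm, the muscle creatine kinase, and Myh4, a fast myosin heavy chain, served to check the tissue: in the 8 libraries compared Ckm had 50387 to 126005 scaled reads. Between replicates a gene's SD had a median of 0.43 on the log2 scale in miR-133b-/- and 0.38 in mdx/miR-133b-/-, against 0.27 in Control and 0.21 in mdx. Groups were taken from the titles of the libraries, and in 14 of the 16 the description field names another code. In bulk muscle, fewer cells of a type and less RNA per cell cannot be told apart. Nothing in the labels says that each library is a different animal, so a p-value covers the spread between these samples only, and that spread may be technical.

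Every listed gene differs between the groups compared, since the ratio of the group means is at least 1.72-fold, either way, in all 831. That the table was selected on this comparison is inferred from this edge and is not stated in the labels. The differences below are therefore sizes, given as log2 fold changes with their standard errors and with no p-value. Of the listed genes 498 (59.9%) were higher in mdx/miR-133b-/- and 333 were lower. On the deposited scaling higher genes differed by more: their median was 2.47-fold, against 2.01-fold for lower genes. This order depends on the scaling. With relative log expression factors, computed from the listed genes alone, sizes shrank for higher genes and grew for lower ones. The median of the extracellular matrix list then moved from 1.26 to 0.70 and that of the fast fibre list from -0.90 to -1.45. At least 2-fold differences were reached by 380 higher genes (45.7% of those listed) and 169 lower genes (20.3%), which is 66.1% in all. At least 4-fold differences were reached by 127 higher (15.3%) and 14 lower genes (1.68%), together 17%, and at least 8-fold differences by 36 (4.33%) and 7 (0.842%). The table's edge is sharp: the smallest ratios belonged to Rragd (7299 and 4251 scaled reads on average in miR-133b-/- and mdx/miR-133b-/-), Bod1 and Arf4, and 82 genes lay under 1.8-fold. Over all listed genes the median log2 fold change was 0.95. In 653 genes (78.6%) the 4 values of a group lay wholly above those of the other.

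**Figure D1:**
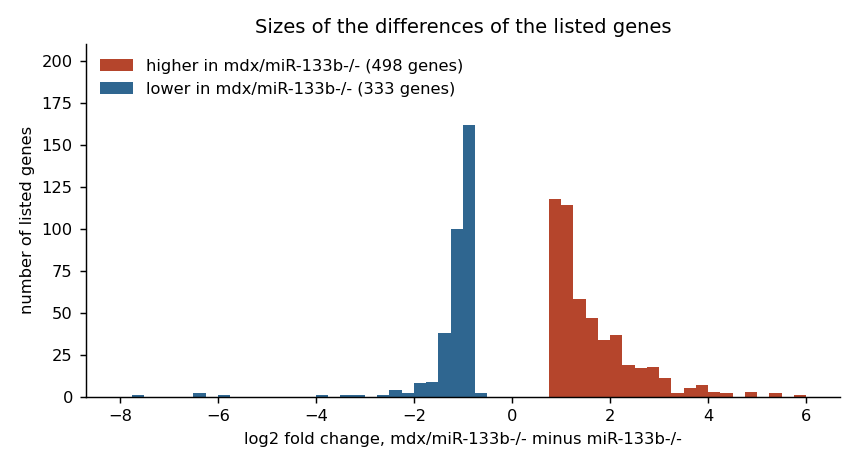
Number of listed genes (vertical axis) by log2 fold change of mdx/miR-133b-/- against miR-133b-/- (horizontal axis, bins of 0.25). No gene lies in the middle, 498 genes lie to its right and 333 to its left, and 36 higher and 7 lower genes lie beyond 8-fold.

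Higher and lower genes also differed in kind. Higher genes were of low abundance in miR-133b-/- muscle, with a median of 80.9 scaled reads there and 236 in mdx/miR-133b-/-. Lower genes were more abundant, with medians of 783 and 374. The median GC content was 48.2% in higher genes and 51.1% in lower genes, and the median transcript length 4004.5 and 2723 bases. Over the listed genes, none of which is an independent replicate, the log2 fold change had a Spearman rho of -0.17 with GC content and 0.23 with transcript length.

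The same genes were tested in mdx against Control, which shares no library with the groups compared above. There limma called 550 genes (66.2%), of which 370 were higher (44.5% of those listed) and 180 lower (21.7%), and the table's median log2 fold change was 0.44. In 585 genes (70.4%) the mdx and Control libraries did not overlap. These shares are the background for the counts by gene list below, along with those within each direction. Of the genes higher without miR-133b 74.3% rose in mdx, and of the lower genes 53.8% fell. For higher genes the share was 49.2% under 2-fold, 74.3% at 2 to 4-fold and 97.6% at 4-fold and more. A selection on the comparison without miR-133b would include the effect of mdx, so counts in mdx favour genes that respond to it and do not describe whole lists.

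By the rule for single genes, the gene furthest above miR-133b-/- was Myh3 (chromosome 11, 67078300 to 67102291), a myosin heavy chain of embryonic fibres. Its scaled reads were 131, 33.5, 30.9 and 30.8 in miR-133b-/- and 4896, 336, 1180.5 and 1492 in mdx/miR-133b-/-. The groups did not overlap, yet the mdx/miR-133b-/- libraries differed widely among themselves, from 336 in replicate 2 to 4896 in replicate 1, and miR-133b-/- replicate 1 stood above its group. The log2 fold change was 4.82 (SE 0.62), and it ranged from 4.18 without mdx/miR-133b-/- replicate 1 to 5.47 without replicate 2. Sox11, a transcription factor of developing tissues, had 7, 33.5, 2.94 and 8.53 scaled reads in miR-133b-/- and 207, 131, 183 and 232 in mdx/miR-133b-/-. All mdx/miR-133b-/- libraries were above 130 and the log2 fold change was 4.20 (SE 0.50), or 4.79 without miR-133b-/- replicate 2. Dclk1, a microtubule-associated kinase, had 159, 206, 104 and 166 scaled reads in miR-133b-/- and 2216, 818, 2226 and 3632 in mdx/miR-133b-/-, a log2 fold change of 3.66 (SE 0.37). Cyfip2, a member of the complex that starts actin branching, had 23, 47.8, 13.2 and 24.6 and then 575, 269.7, 296 and 169, a log2 fold change of 3.54 (SE 0.40). Its lowest mdx/miR-133b-/- value was over 3 times its highest miR-133b-/- value. The other 4 of the 8 highest were genes of myeloid cells: Mpeg1 (4.19, SE 0.53), C3ar1 (3.84, SE 0.60), Ctss (3.69, SE 0.60) and Ms4a4a (3.59, SE 0.80). Without mdx/miR-133b-/- replicate 2 Mpeg1 was at 4.79 and Ctss at 4.32. Ms4a4a was at 0 in miR-133b-/- replicate 1, and without that library its log2 fold change was 2.31.

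Among genes that meet the same rule (protein coding, no predicted model, groups not overlapping and a mean of at least 100 scaled reads), those furthest below miR-133b-/- differed by less. Some genes outside the rule, on chromosome 2, differed by more. Ces1d, a carboxylesterase that acts on lipids, had 137, 101, 391 and 155 scaled reads in miR-133b-/- and 11.9, 7.29, 22.5 and 38.2 in mdx/miR-133b-/-. Its highest mdx/miR-133b-/- value was well under its lowest miR-133b-/- value, and the log2 fold change was -3.27 (SE 0.54). Amd1, the enzyme that commits S-adenosylmethionine to polyamine synthesis, had 5706, 1962, 3006 and 2557 scaled reads in miR-133b-/- and 579, 782, 999 and 734 in mdx/miR-133b-/-, a log2 fold change of -2.003 (SE 0.38). It has a near-identical copy in the mouse genome, so its counts are uncertain. Slc1a1, a glutamate transporter, had 252, 366, 178 and 257 and then 65.1, 51.7, 55.4 and 115, a log2 fold change of -1.89 (SE 0.31). Dusp26, a phosphatase, had 168, 205, 254 and 286 in miR-133b-/- and 45.4, 33.8, 46.2 and 163 in mdx/miR-133b-/-, where replicate 4 stood well above the other 3 (-1.92, SE 0.41). Tmem267 stood at -2.27 (SE 0.42). The remaining 3 of the 8 lowest, Hlf, Dbp and Per2, are clock genes and are described with them. In mdx against Control all 8 of the highest genes rose, from 1.97 for Sox11 to 5.54 for Myh3. Of the 8 lowest, Ces1d (-2.95), Amd1 (-1.75), Dusp26 (-1.78), Slc1a1 (-1.91) and Hlf fell, and Tmem267 (-0.53, SE 0.42, adjusted p = 0.262), Dbp and Per2 were not called.

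**Figure D2:**
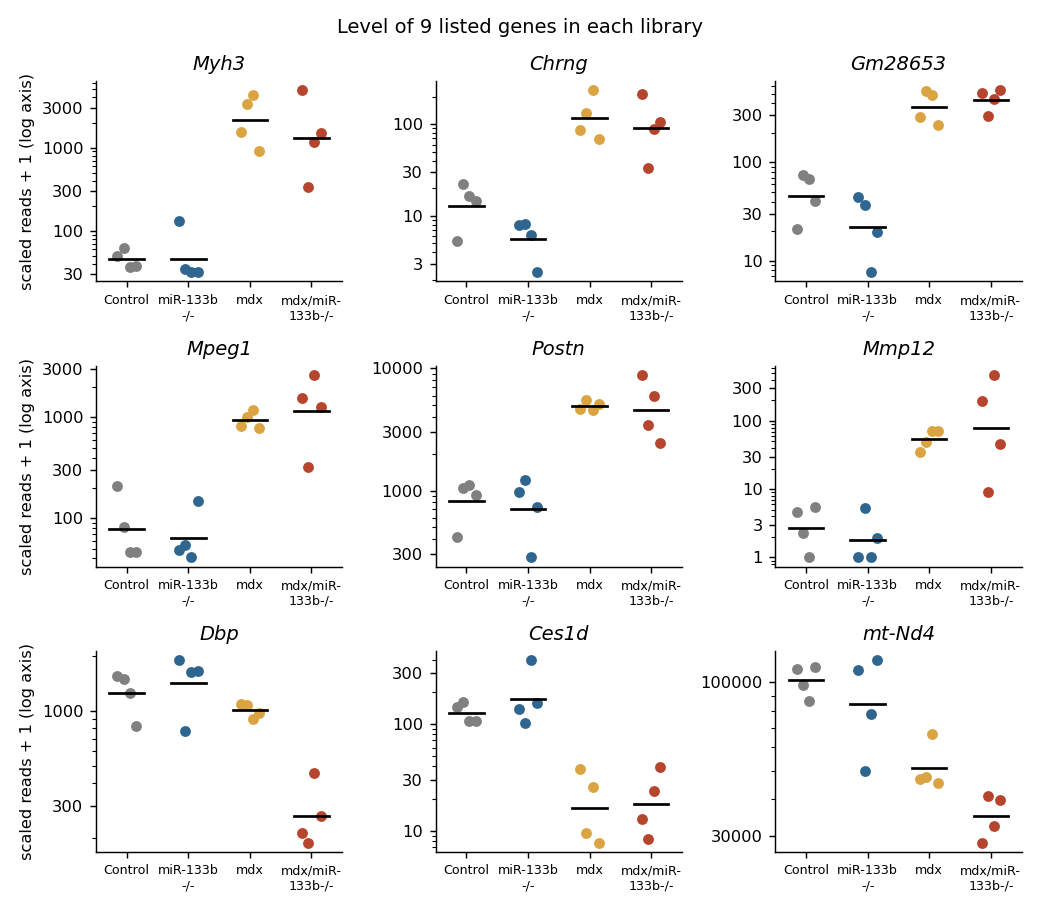
Scaled reads plus 1 (vertical log axis) of 9 listed genes in each library of the 4 groups, with the geometric mean as a bar. Myh3, Chrng, Gm28653, Mpeg1, Postn and Mmp12 were higher in each mdx/miR-133b-/- library than in each miR-133b-/- library, and Dbp, Ces1d and mt-Nd4 lower; the scales differ between panels.

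Genes of embryonic and regenerating fibres formed the list with the second largest median. Of the 16 genes of this list 8 are listed, and all were higher in mdx/miR-133b-/-. Their median log2 fold change was 2.83, against 0.95 over all listed genes and 1.30 over the higher genes. Beside Myh3 the 8 include Chrng, the fetal subunit of the acetylcholine receptor. Its scaled reads were 7, 7.14, 5.15 and 1.42 in miR-133b-/- and 211, 32.5, 87.2 and 105 in mdx/miR-133b-/-. Replicate 2 was the lowest mdx/miR-133b-/- library and still stood above all miR-133b-/- libraries, and the log2 fold change was 4.01 (SE 0.60). Myl4, an embryonic myosin light chain, and Tnnt2, a troponin T of heart and embryonic muscle, stood at 3.13 (SE 0.44) and 3.09 (SE 0.46). Without mdx/miR-133b-/- replicate 1 Myl4 was at 2.53. The transcription factor myogenin (Myog, 1.85), the fusion protein myomaker (Mymk, 2.56), the growth factor Igf2 (2.51) and the adhesion molecule Ncam1 (2.03) complete the list. With miR-133b present all 8 rose in mdx, by a median of 2.35, or 7 of 8 with relative log expression factors. Of all listed genes 44.5% rose in mdx, of the higher genes 74.3%, and of those at least 4-fold higher 97.6%. In this list 7 of the 8 members were at least 4-fold higher. No member had a called difference between the effects with and without miR-133b. The summed level of the list was 979 to 3333 scaled reads in miR-133b-/- and 8164 to 16096 in mdx/miR-133b-/-. The only listed gene of the satellite cell and proliferation list was Cdkn1a, a cell cycle inhibitor, at 2.17 (SE 0.37).

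Since all members of this list were higher, their promoters were searched for CAGCTG, an E-box that myogenic transcription factors such as myogenin are known to bind. The motif reads the same on both strands. RefSeq windows of 300 bases (250 before the start site and 50 after it, build GRCm38.p6) were matched for 6 of the 8 genes, and 2 of them hold the motif, Chrng and Tnnt2, against 16.3% of 32851 windows. The 250 bases before the start of Chrng (chr1:87205561-87205810, plus strand) are shown 5′ to 3′ with the motif in capitals, because both of its copies lie there, with first bases at 155 and 132 before the start site.
Chrng: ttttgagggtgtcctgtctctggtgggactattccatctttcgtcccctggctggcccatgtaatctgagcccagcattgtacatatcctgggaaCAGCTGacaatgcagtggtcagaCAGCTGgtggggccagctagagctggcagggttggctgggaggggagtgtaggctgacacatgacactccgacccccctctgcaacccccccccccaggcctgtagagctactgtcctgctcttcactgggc
A match describes the letters only.

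Neuromuscular junction and denervation genes were mostly higher. Of 16 genes in the list 7 are listed, 6 of them higher and 1 lower, with a median of 1.33. Chrng and Ncam1 of these also belong to the embryonic and regenerating fibre list. Runx1, a transcription factor that denervated fibres are known to raise, had 74, 176, 56.6 and 125 scaled reads in miR-133b-/- and 705, 478, 709.8 and 1448 in mdx/miR-133b-/-. The mdx/miR-133b-/- libraries were all above 470, and the log2 fold change was 2.96 (SE 0.33). Other receptor genes differed by less: Chrna1 by 1.27 and Chrnd by 1.31, while Musk, the kinase that organises the junction, stood at 1.33. Dach2, a transcriptional repressor, was the lower member, with 183, 179.9, 152 and 103 scaled reads in miR-133b-/- and 23.8, 26.5, 34.7 and 69.1 in mdx/miR-133b-/-, and no overlap (-2.07, SE 0.32). In mdx 5 of the 7 rose and Dach2 fell (-2.64, SE 0.32, adjusted p = 9.9e-06), while Musk stood at 0.30 (SE 0.28, adjusted p = 0.348).

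Most of the listed slow fibre genes were higher, and the listed fast fibre genes were lower. Of 10 slow fibre genes 5 are listed and 4 were higher, with a list median of 1.03. Myh7, Myl2, Myl3, Tnnc1 and Myoz2 of the same list are not listed, so a slow against fast fibre contrast was not tested. Tnni1, slow troponin I, had 16, 15.7, 8.83 and 8.53 scaled reads in miR-133b-/- and 335, 27.2, 119 and 84.9 in mdx/miR-133b-/-, and Tnnt1, slow troponin T, had 22, 49.97, 19.1 and 25.6 and 381, 47.7, 107 and 117. For Tnnt1 the groups overlapped, since mdx/miR-133b-/- replicate 2 was below miR-133b-/- replicate 2. The log2 fold changes were 2.96 (SE 0.62) and 2.14 (SE 0.48), and without mdx/miR-133b-/- replicate 1 that of Tnni1 was 2.37. Casq2, the slow calsequestrin, and Atp2a2, the slow calcium pump, stood at 1.03 and 0.96. For Casq2 the groups overlapped too, and without mdx/miR-133b-/- replicate 1 its log2 fold change was 0.75. Mb, the oxygen store myoglobin, was lower, with 6048, 6436, 13637 and 12267 scaled reads in miR-133b-/- and 4118, 3242, 2135 and 1805 in mdx/miR-133b-/- (-1.75, SE 0.29). The summed level of the 5 genes averaged 11665 scaled reads in miR-133b-/- and 7380 in mdx/miR-133b-/-, with overlapping ranges. Mb alone averaged 9597 and 2825. In mdx the 4 higher genes rose, and Mb stood at -0.62 (SE 0.29, adjusted p = 0.0608), a fall that was called with relative log expression or upper quartile factors.

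All 4 listed members of the 12 fast fibre genes were lower in mdx/miR-133b-/-, by a median of -0.90. Actn3, the fast actinin, had 70687, 36389, 73679 and 92213 scaled reads in miR-133b-/- and 34324, 28518, 25765 and 30819.8 in mdx/miR-133b-/-. Replicate 2 was the lowest miR-133b-/- library, and stood just above the mdx/miR-133b-/- libraries (-1.12, SE 0.23). Myh4, the heavy chain of the fastest fibres, had 498803, 173999, 386818 and 422547 and 198202, 187708, 146677 and 173865, where the same replicate lay inside the mdx/miR-133b-/- range (-0.98, SE 0.26). Pvalb, a calcium buffer, stood at -0.82 (SE 0.22) and Ckm at -0.80 (SE 0.19). In mdx 2 of the 4 fell (21.7% of all listed genes and 53.8% of the lower genes did), Myh4 and Ckm. Both calls were near the threshold: that of Myh4 was lost in 7 of 8 fits that left out 1 library of mdx or Control (adjusted p up to 0.141) and that of Ckm in 6 of 8 (up to 0.130). Neither was called without a variance trend. The fast fibre genes took 21.5% ± 3.78 of the listed reads in miR-133b-/- and 19.05% ± 1.62 in mdx/miR-133b-/- (SD over 4 libraries each).

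Of 15 genes of the dystrophin complex and laminins 4 are listed, and their median log2 fold change was 0.96. That median was 0.28 with the GC and length trend removed and 0.40 with relative log expression factors, which are computed from the listed genes alone. Lama2, the laminin chain to which the complex binds, had 1058, 1159, 1038 and 1139 scaled reads in miR-133b-/- and 2503, 2079, 2393 and 1818 in mdx/miR-133b-/- (0.99, SE 0.17). Sntb1, a syntrophin that binds dystrophin, had 159, 128, 136 and 119.9 and 238, 227, 329.8 and 302 (0.997, SE 0.19). Its relative Sntb2 stood at 0.93 (SE 0.18). Nos1, the nitric oxide synthase that the complex anchors, was lower, with 868, 978, 1450 and 1089 scaled reads in miR-133b-/- and 519, 628, 577 and 461 in mdx/miR-133b-/- (-0.99, SE 0.22). The groups did not overlap in any of the 4. In mdx only Lama2 was called of these 4 (0.54, SE 0.17, adjusted p = 0.0101), and Nos1 stood at -0.16 (SE 0.22, adjusted p = 0.513) and Sntb2 at 0.10 (SE 0.18, adjusted p = 0.62). With relative log expression factors the median of the list in mdx was -0.11 in place of 0.25, and Lama2 was not called. With the GC and length trend removed that median was 0.044, and Lama2 was not called either. The difference between the effects was called for none of the 4 (smallest adjusted p = 0.148).

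Monocyte and macrophage genes had the largest median of all lists. Of 24 genes 15 are listed, and all were higher in mdx/miR-133b-/-, by a median of 2.96. The groups did not overlap in 11 of the 15, against 78.6% of all listed genes. Itgax, the integrin CD11c, had 4, 1.43, 0 and 7.58 scaled reads in miR-133b-/- and 119, 13.3, 189 and 41.5 in mdx/miR-133b-/-, and Mpeg1, a pore-forming protein of macrophages, had 47, 53.5, 39.7 and 145 and 1573, 324, 2618 and 1281. For both genes mdx/miR-133b-/- replicate 2 was the lowest of its group and replicate 3 the highest. The log2 fold change of Itgax was 4.25 (SE 0.77), and without replicate 2 it was 4.95. Ms4a7, a membrane protein of macrophages, stood at 3.81 (SE 0.58), and Gpnmb, a glycoprotein of lipid-laden phagocytes, at 3.77 (SE 0.84). Gpnmb ranged from 3.005 without mdx/miR-133b-/- replicate 3 to 4.68 without replicate 2. Adgre1, the gene of F4/80, was at 2.96, the growth factor receptor Csf1r at 2.13, and the chemokine receptor Ccr2 at 3.03. The smallest differences were those of Mrc1, a mannose receptor of resident and repair macrophages (0.91), and Cx3cr1 (0.996). In mdx 14 of the 15 rose, by a list median of 2.69, and Mrc1 was not called (adjusted p = 0.234). Of the 15 genes 12 were at least 4-fold higher, and of all listed genes that much higher 97.6% rose in mdx. The summed level of the 15 genes was 1058 to 2965 scaled reads in the miR-133b-/- libraries and 4296 to 18053 in the mdx/miR-133b-/- libraries, against 7697 to 12049 in mdx. No listed macrophage marker was at 0 in any mdx/miR-133b-/- library. The part of macrophage content in the other differences was not tested.

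Signalling genes of innate immunity followed. All 13 listed members of the 21 chemokine and innate receptor genes were higher, by a median of 2.80. C3ar1, a receptor for a complement fragment, had 14, 14.99, 6.62 and 37.9 scaled reads in miR-133b-/- and 211, 78.9, 493 and 354 in mdx/miR-133b-/-. The groups did not overlap, and the log2 fold change was 3.84 (SE 0.60). Clec7a, the fungal glucan receptor dectin-1, stood at 3.78 (SE 0.64), or at 4.51 without mdx/miR-133b-/- replicate 2. The ligands Ccl6, Ccl7, Ccl9 and Cxcl16 were between 2.03 and 2.80, and the Toll-like receptors Tlr1, Tlr4, Tlr7 and Tlr13 between 1.41 and 2.91. All 13 rose in mdx, by a median of 2.54. Of them 11 were at least 4-fold higher, and of all listed genes that much higher 97.6% rose in mdx. Calls numbered 12 with either set of other scaling factors or with the GC and length trend removed, and 11 with limma-voom.

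Antigen presentation and complement genes were higher in 8 of 8 listed members of 12, by a median of 2.004, or 2.83 with the GC and length trend removed. C1qc, a chain of the complement starter C1q, had 13, 28.6, 22.1 and 27.95 scaled reads in miR-133b-/- and 227, 82.8, 202 and 108 in mdx/miR-133b-/-, and H2-Eb1, a class II antigen presentation chain, had 26, 32.8, 26.5 and 57.8 and 288, 123, 157 and 159. Both separated the groups, with replicate 1 the highest mdx/miR-133b-/- library for each (2.64, SE 0.36 and 2.32, SE 0.32). Cd74, the class II invariant chain, was at 2.20, and H2-Aa at 2.04. In mdx all 8 rose (74.3% of the higher genes did), by a median of 2.48. The difference between the effects was above 0 in 2 of 8 genes and called in none (smallest adjusted p = 0.486).

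Lysosome and phagocytosis genes ranged from 0.77 for Ctsz, a cathepsin, to 5.84 for Atp6v0d2, part of the proton pump that acidifies vacuoles in osteoclasts and macrophages. All 9 listed genes of 18 were higher, by a median of 1.25. Atp6v0d2 had 0, 0, 2.94 and 2.37 scaled reads in miR-133b-/- and 176, 15.9, 436 and 109 in mdx/miR-133b-/-. It was at 0 in 2 miR-133b-/- libraries, so its fold depends on the added 1, and leaving out libraries moved it from 5.18 to 6.74. Ctss, cathepsin S of antigen-presenting cells, had 43, 27.1, 14.7 and 81.02 and 733, 121, 906 and 541 (3.69, SE 0.60), and Laptm5 stood at 3.48 (SE 0.56), or at 2.89 without miR-133b-/- replicate 1. Ctsk, a collagen-degrading cathepsin (1.05), and Lgmn (1.25) and Cd63 (0.95), which many cell types use, differed by less. All 9 rose in mdx (74.3% of the higher genes did), and 7 of them with relative log expression factors.

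**Figure D3:**
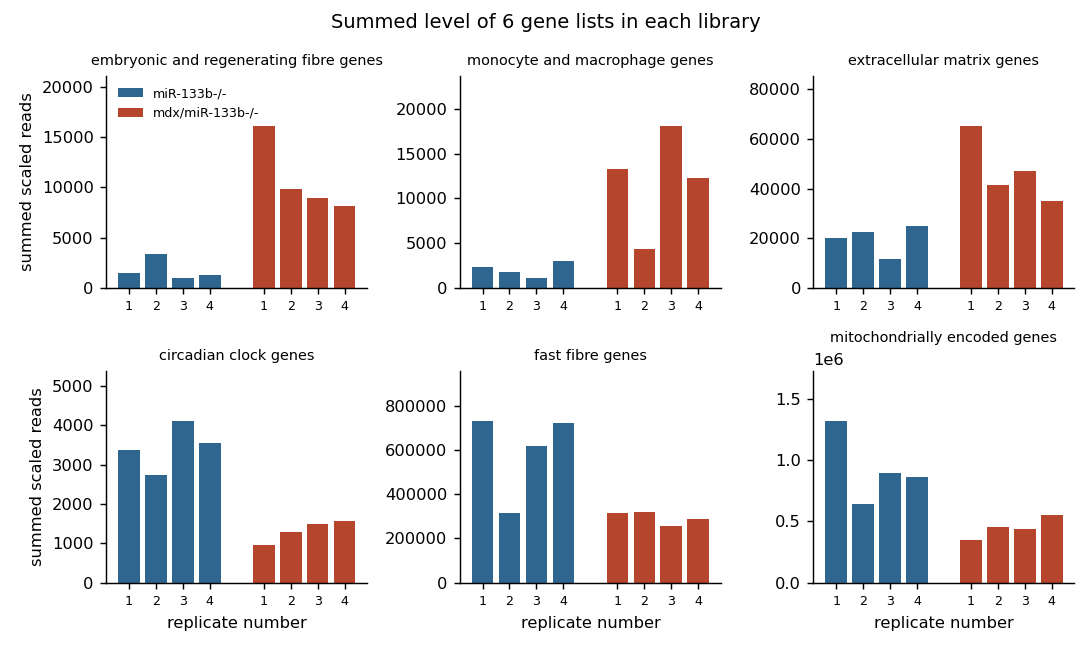
Summed scaled reads (vertical axis) of the listed members of 6 gene lists in each of the 8 libraries compared, by replicate number. Macrophage genes ranged from 4296 in mdx/miR-133b-/- replicate 2 to 18053 in replicate 3, and the fast fibre genes of miR-133b-/- replicate 2 (314869) lay inside the mdx/miR-133b-/- range.

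Connective tissue genes were higher in all listed members. Of 23 extracellular matrix genes 13 are listed, with a median of 1.26. Timp1, an inhibitor of matrix proteases, had 0, 8.57, 2.94 and 26.1 scaled reads in miR-133b-/- and 174, 99.4, 88.9 and 365 in mdx/miR-133b-/-, and it was at 0 in miR-133b-/- replicate 1 (4.78, SE 0.72, or 3.95 without that library). Postn, periostin, had 966, 1207, 282 and 726 and 8789, 3438, 5935 and 2456, with the lowest value in miR-133b-/- replicate 3 (2.71, SE 0.41). Tnc, tenascin C, stood at 2.31 (SE 0.39), and Lox, which crosslinks collagen, at 2.09 (SE 0.34). The collagen chains of the list, Col3a1, Col5a2, Col12a1 and Col14a1, were between 1.06 and 1.26, and fibronectin (Fn1) was at 1.31. All 13 rose in mdx (74.3% of the higher genes did), by a median of 1.29. The summed level was 11545 to 25086 scaled reads in miR-133b-/- and 34965 to 65062 in mdx/miR-133b-/-.

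The matrix protease list, which also counts the inhibitor Timp1 named above, had a larger median. It was 2.10 over 10 listed of 16 genes, and all were higher. Mmp12, the macrophage elastase, had 0, 4.28, 0 and 0.948 scaled reads in miR-133b-/- and 196, 7.95, 465 and 45.4 in mdx/miR-133b-/-. It varied most within mdx/miR-133b-/-, where replicate 2 had the lowest and replicate 3 the highest value, and its log2 fold change of 5.46 (SE 1.002) ranged from 4.60 to 6.50 as these were left out. Adamts4, an aggrecan-cleaving protease, had 0, 29.3, 0 and 11.8 and 253, 215, 45.6 and 134, with 2 miR-133b-/- libraries at 0 (4.94, SE 0.84, from 4.22 to 5.86 with a library left out). Adam8, a membrane protease of leukocytes, stood at 3.01 (SE 0.40). Mmp13 is in no list and was at 3.90. In mdx 9 of 10 rose, Timp1 among them (74.3% of the higher genes did), by a median of 1.42. Adamts4 was not called (1.40, SE 0.84, adjusted p = 0.14). Calls numbered 10 with a pseudocount of 10 or with only the compared libraries in the fit, and 8 with relative log expression factors or the GC and length trend removed. The median of the list without miR-133b was 1.35 over the 4 members with a mean of at least 200. The difference for Adamts4 was 3.54 (SE 1.18, adjusted p = 0.148), which did not pass.

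The markers of fibro-adipogenic progenitors, the connective tissue cells of muscle, were higher in 3 of 3 listed genes of 11. Pdgfra, their growth factor receptor, had 506, 332, 283 and 425 scaled reads in miR-133b-/- and 939.9, 698, 1230.2 and 1146 in mdx/miR-133b-/- (1.38, SE 0.23), and Lum, lumican, had 475, 501, 367 and 529 and 1439, 1018, 1029 and 666 (1.11, SE 0.24). Fap stood at 0.84 (SE 0.23). Of the 10 tendon genes 3 are listed, and all were higher, among them the collagen Col12a1. Cilp, a cartilage and tendon matrix protein, had 185, 69.95, 71.4 and 209 and 1579, 1007, 543 and 508 (2.78, SE 0.41), and Thbs4, thrombospondin 4, had 319, 364, 305 and 455 and 2525, 736, 718 and 755 (1.49, SE 0.33), where replicate 1 stood far above the others. All 6 listed genes of both lists rose in mdx (2 of the 3 progenitor markers with relative log expression factors), Cilp by 2.82 (SE 0.41, adjusted p = 4.0e-05) and Thbs4 by 2.19 (SE 0.33, adjusted p = 5.0e-05). Tnmd and Scx, which define tendon cells, are not listed, so their levels are not known here. Whether they were measured and did not differ cannot be told from the listed genes. Whether adhering tendon differed between libraries was not tested.

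Circadian clock genes had the lowest median of the lists with at least 2 listed genes. Of 18 genes 6 are listed, 5 lower and 1 higher, with a median of -1.95. Hlf and Dbp, clock-driven transcription factors of the same family, were the lowest members. Hlf had 440, 340.5, 539 and 429 scaled reads in miR-133b-/- and 28.4, 50.4, 161 and 84.3 in mdx/miR-133b-/- (-2.68, SE 0.36). Dbp (chromosome 7, 45705088 to 45710203) had 1883, 776, 1624 and 1653 and 213, 188, 454 and 264 (-2.41, SE 0.29), and its miR-133b-/- replicate 2 was well below the other 3 of its group. The groups did not overlap for either gene. The repressors Per2 and Ciart stood at -1.94 (SE 0.33) and -1.97 (SE 0.48). Arntl, which encodes the activator BMAL1 and peaks opposite to these genes, was higher (1.73). In mdx Hlf (-1.46, SE 0.36, adjusted p = 0.00215) and Ciart (-1.96) fell and Arntl rose (0.54, SE 0.23, adjusted p = 0.0479), whereas Dbp (-0.31, SE 0.29, adjusted p = 0.34) and Per2 (-0.60, SE 0.33, adjusted p = 0.113) were not called; Per2 was called without Control replicate 1, with relative log expression factors or with a replicate block. The rise of Arntl in mdx was not called with other scaling factors, the larger pseudocount, limma-voom or a replicate block. Nor was it called with a mean of at least 200 or with the GC and length trend removed. Dbp stood at 1555, 1485, 1244 and 824 scaled reads in Control and 1085, 1073, 895 and 973 in mdx, so all 4 mdx/miR-133b-/- libraries lay below all libraries of the other 3 groups. The difference between the effects for Dbp was -2.11 (SE 0.41, adjusted p = 0.00641). The labels give no time of collection for these libraries.

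The clock activators bind the E-box CACGTG, which reads the same on both strands. RefSeq windows were matched for 4 of the 6 listed clock genes. Ciart alone of these 4 holds the motif, in 3 copies with first bases at 116, 58 and 44 before the start site, against 7.15% of 32851 windows with at least 1 copy. Its 250 bases before the start site (GRCm38.p6, chr3:95882229-95882478, minus strand) are shown 5′ to 3′ with the motif in capitals, as the window that carries the repeated E-box.
Ciart: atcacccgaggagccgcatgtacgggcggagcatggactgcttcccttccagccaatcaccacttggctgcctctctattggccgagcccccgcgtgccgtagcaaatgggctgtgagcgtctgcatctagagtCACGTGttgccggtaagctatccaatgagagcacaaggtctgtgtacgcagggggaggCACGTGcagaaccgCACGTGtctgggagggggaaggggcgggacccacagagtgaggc
Ciart itself had 65, 248, 137 and 116 scaled reads in miR-133b-/- and 13.3, 60.96, 28.3 and 42.1 in mdx/miR-133b-/-, with miR-133b-/- replicate 1 near the upper mdx/miR-133b-/- values.

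Genes of energy use were lower in all listed members of 4 lists. Of 15 mitochondrially encoded genes 7 are listed, with a median of -1.12. mt-Co2, a subunit of complex IV, had 1363, 570.3, 790.1 and 719 scaled reads in miR-133b-/- and 333, 356, 212 and 312 in mdx/miR-133b-/- (-1.45, SE 0.23). mt-Nd4, of complex I, had 110402, 49968, 78002 and 118772 and 28421, 41063, 32352 and 39795 (-1.27, SE 0.23). Both separated the groups, and replicate 2 was the lowest miR-133b-/- library for each. mt-Atp6 stood at -1.15 (SE 0.25) and mt-Nd1 at -1.12 (SE 0.26). Nuclear copies of mitochondrial genes can share these reads, so single values are uncertain. All 7 fell in mdx, by a median of -0.99, and 6 did after removal of the GC and length trend; the calls of mt-Co2 and mt-Nd1 were lost without Control replicate 1, and that of mt-Co2 also without mdx replicate 2 (adjusted p up to 0.0705). As a share of the listed reads, the 7 genes took 33.9% ± 3.76 in miR-133b-/- and 28.8% ± 4.92 in mdx/miR-133b-/- (SD over 4 libraries each), and the ranges overlapped (30.4% to 39.2% and 22.4% to 34.3%).

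Nuclear genes of the respiratory chain were lower by a median of -0.84 in 5 listed of 16 genes. Cox5a, of complex IV, had 30222, 14387, 13179 and 22334 scaled reads in miR-133b-/- and 7456, 8948, 5356 and 5713 in mdx/miR-133b-/- (-1.49, SE 0.22), and Ndufa10, of complex I, had 1986, 1191, 1719 and 1971 and 1254, 1030.4, 617 and 651 (-0.99, SE 0.22). For Ndufa10 the groups overlapped. Atp5a1 stood at -0.84 (SE 0.22) and Ndufs1 at -0.80 (SE 0.16). In mdx 2 of the 5 fell, Cox5a and Ndufs1, by a list median of -0.36. The call of Cox5a was lost with any 1 library of mdx or Control left out (adjusted p up to 0.101), and that of Ndufs1 without Control replicate 4 or mdx replicate 3 (up to 0.0593). Glycolysis and glycogen genes were lower in 3 of 3 listed of 15: Aldoa, an aldolase (-1.07, SE 0.21), Hk2, a hexokinase (-0.99, SE 0.24), and Pfkm, the muscle phosphofructokinase (-0.89, SE 0.18). Aldoa had 109991, 79909.6, 124936 and 147932 scaled reads in miR-133b-/- and 71570.4, 54779, 45062 and 46757 in mdx/miR-133b-/-, and Hk2 had 6193, 8686, 8699 and 6089 and 3264, 3413, 3529.9 and 4604. In mdx Aldoa and Hk2 fell and Pfkm did not pass; the call of Aldoa was lost in 5 of 8 fits with a library left out (adjusted p up to 0.0916). The 2 listed genes of 18 of fatty acid use and the citrate cycle, Mdh2 (-0.83, SE 0.17) and Cpt2 (-0.82, SE 0.22), were lower and neither passed in mdx, where both did with relative log expression factors.

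**Figure D4:**
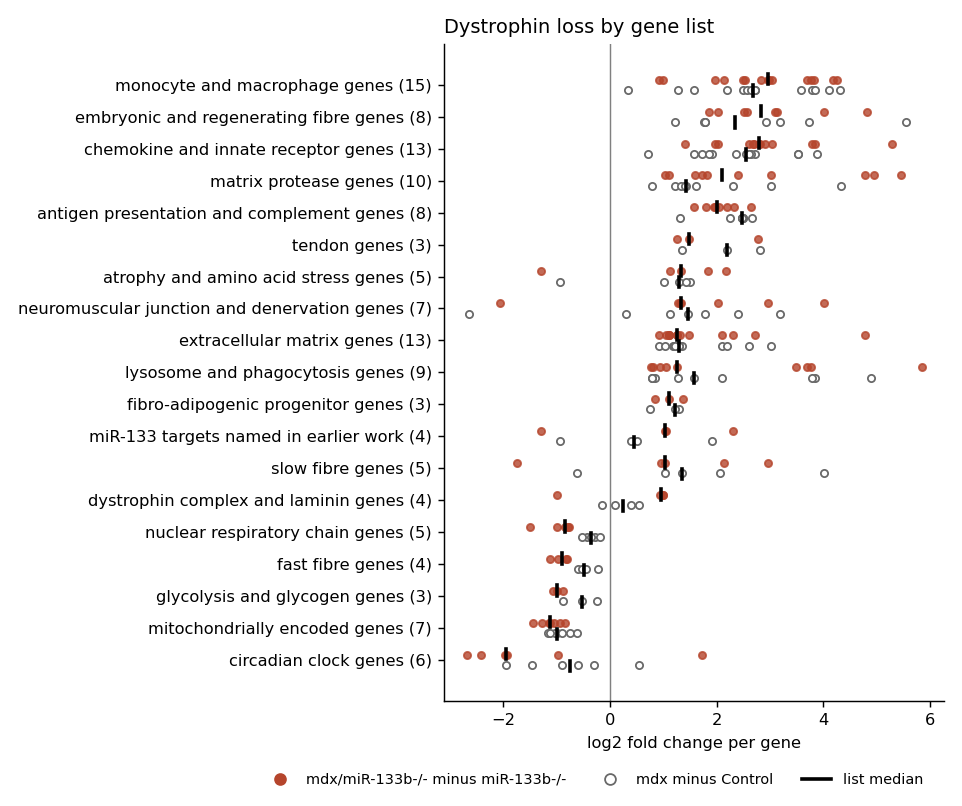
Log2 fold change of each listed member (points) of the 19 lists with at least 3 listed genes, without miR-133b (filled, mdx/miR-133b-/- minus miR-133b-/-) and with it (open, mdx minus Control); bars are list medians and numbers the listed genes. Medians without miR-133b run from 2.96 for macrophage genes to -1.95 for clock genes, and no filled point lies near 0, since all listed genes differ at least 1.72-fold.

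Among atrophy and amino acid stress genes 4 of 5 listed were higher, with a median of 1.33. The higher ones were enzymes of amino acid synthesis and Cdkn1a, the cell cycle inhibitor named above. The count therefore does not describe a rise of atrophy genes. Phgdh and Psat1, enzymes of serine synthesis, stood at 1.84 (SE 0.42) and 1.33 (SE 0.27), and Asns, asparagine synthetase, at 1.12. Phgdh had 6, 23.6, 19.1 and 35.5 scaled reads in miR-133b-/- and 88.95, 58.97, 72.8 and 50.7 in mdx/miR-133b-/-. Klf15, a transcription factor induced by glucocorticoids, was lower, with 169, 496, 430.4 and 435 and 142, 111, 185 and 149; miR-133b-/- replicate 1 lay inside the mdx/miR-133b-/- range (-1.29, SE 0.38). In mdx the 4 rose and Klf15 fell, a call lost in 4 of 8 fits with a library left out (adjusted p up to 0.159).

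Of 10 genes that earlier work named as miR-133 targets 4 are listed. Runx2, a transcription factor of bone, had 32, 34.98, 47.8 and 34.1 scaled reads in miR-133b-/- and 143, 159, 228 and 226 in mdx/miR-133b-/-, with no overlap (2.30, SE 0.30). The hedgehog effector Gli3 (1.04, SE 0.27) and the growth factor receptor Egfr (1.04, SE 0.27) were higher, and Klf15 is the fourth. Both groups of this comparison lack miR-133b. Over the 2 members with a mean of at least 200 the median was -0.13, against 1.04 over all 4, and that of all 4 was 0.38 after removal of the GC and length trend. In mdx Runx2 rose (1.92, SE 0.30, adjusted p = 6.6e-05), and Gli3 (0.39) and Egfr (0.50) were not called.

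Single members stood for 3 further cell-type and response lists. Ighm, the heavy chain of IgM and the only listed gene of 11 lymphocyte genes, had 543, 189.9, 1108 and 624 scaled reads in miR-133b-/- and 85.7, 38.4, 122 and 39.5 in mdx/miR-133b-/-, with no overlap (-3.01, SE 0.55). In mdx it stood at -1.13 (SE 0.55, adjusted p = 0.0763) and was called without Control replicate 3. Oas2, an interferon-induced enzyme, was higher (1.48, SE 0.31), and Flt1, an endothelial growth factor receptor, was lower (-0.88, SE 0.19). No listed gene belonged to the neutrophil, adipocyte, erythrocyte, Schwann cell, pericyte and smooth muscle, or heat shock and immediate early lists, so these were not analysed here. Some listed genes belong to several lists, so the counts by list are not independent. Among them are Chrng, Ncam1, Cdkn1a, Ccr2, C5ar1, Ctss, Gpnmb, Lum, Thbs4, Col12a1, Timp1 and Klf15. In all, 126 of the 831 genes belong to a list.

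The other 705 belong to none. Families were also grouped by symbol over all 831 genes, after their values were seen. The 8 listed collagen chains and the 5 matrix metalloproteinases were all higher, with medians of 1.18 and 2.39. The 7 interleukin receptor genes were all higher, from 0.98 for Il17ra to 2.97 for Il10ra, and 3 rose in mdx. The 4 Ms4a genes had a median of 3.08 and all rose in mdx. Solute carriers were mixed, with 12 of 20 higher, from -2.41 for the peptide transporter Slc15a5 to 2.53. Potassium channel subunits were mostly lower, in 5 of 7, and 6 of the 7 were called the same way in mdx. All 6 listed complex I subunits were lower, by a median of -0.99, and 1 of them fell in mdx, where their median was -0.27. The proteasome subunits Psmc2 (-1.13) and Psmd12 (-1.19) were lower, and in mdx they had a median of -0.08 with neither called.

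By gene kind, 788 listed genes are protein coding (478 higher), 20 are long non-coding RNAs not annotated as antisense (15 higher), 7 are antisense (3 higher), and 13 carry a pseudogene annotation. The 2 higher ones of these 13 are Gm8822 and Clec7a, the receptor named above, which is annotated as a polymorphic pseudogene. Because strand use in counting is not given in the sources used here, antisense and overlapping genes are uncertain, and pseudogenes can share reads with their parents. After Gm28653 the highest long non-coding RNAs with known roles were Mirg, which hosts microRNAs of an imprinted cluster on chromosome 12, and Dnm3os, which hosts miR-199a and miR-214. Mirg had 155, 549, 76.5 and 232 scaled reads in miR-133b-/- and 684, 2074, 805 and 951 in mdx/miR-133b-/- (2.36, SE 0.49), with replicate 2 the highest library in both groups. Dnm3os had 99, 256, 77.2 and 129 and 621, 559, 489 and 411 (2.02, SE 0.28), and rose in mdx (1.39, SE 0.28, adjusted p = 4.7e-04), where Mirg was not called (adjusted p = 0.0721; called without mdx replicate 3, with a replicate block or with only the compared libraries). 2310065F04Rik, called linc-Myh in RefSeq (chromosome 11, 67112461 to 67120080), lies beside the fast myosin heavy chain genes. It had 1169, 965, 1377 and 1564 scaled reads in miR-133b-/- and 232, 234, 354 and 242 in mdx/miR-133b-/-, or 4.77-fold lower (-2.25, SE 0.29), and it fell in mdx too (-2.01, SE 0.29, adjusted p = 4.0e-05). These 4 RNAs were chosen after their values were seen.

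Dystrophin loss had the same direction with and without miR-133b in 809 of the 831 genes (97.4%). The 2 comparisons share no library, and across the listed genes, given as a description, their log2 fold changes had a Pearson r of 0.88 and a Spearman rho of 0.91. Of the 498 genes higher without miR-133b, 370 (74.3%) also rose in mdx, and of the 333 lower genes 179 (53.8%) also fell. The share called in mdx grew with the size of the difference among higher genes, from 49.2% under 2-fold to 74.3% at 2 to 4-fold and 97.6% at 4-fold and more. Among lower genes it was 47.6%, 61.3% and 42.9% in the same bands, the last of them 14 genes. The median effect was smaller in mdx, 1.03 for higher genes and -0.56 for lower genes against 1.30 and -1.01 without miR-133b. The fold edge of the table points to a selection on the latter, which the labels do not state and which would favour that order, so no difference in strength can be read from it. With relative log expression factors, calls in mdx were 260 higher and 270 lower, and the median log2 fold change of all genes moved from 0.44 to 0.09 in mdx and from 0.95 to 0.39 without miR-133b, where the split into 498 higher and 333 lower genes did not change.

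**Figure D5:**
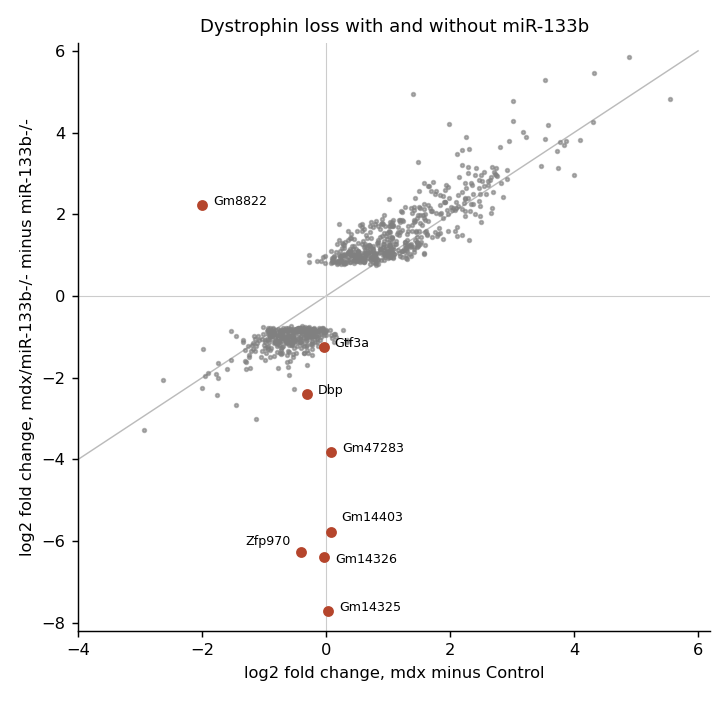
Log2 fold change of each of the 831 genes without miR-133b (vertical axis) against that with miR-133b (horizontal axis); the diagonal marks equal effects, and the 8 genes with a called difference are named. Most genes lie along the diagonal beyond the empty band around 0 on the vertical axis, and 7 of the 8 named genes lie below it.

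The difference of the effects was tested for each gene, and limma called 8 of 831 (0.963%), 1 above 0 (0.12%) and 7 below (0.842%). The test shares libraries with the inferred selection of the table, which would favour differences of the same sign as the effect without miR-133b, and 84.6% of all differences had that sign. At an unadjusted p under 0.05 there were 172 genes. Without miR-133b-/- replicate 2 there were 110 calls, among them all 8, and without mdx/miR-133b-/- replicate 1 there were 15. By the naming rule the genes were Dbp, described above, and Gtf3a, a transcription factor for 5S ribosomal RNA. Gtf3a had 502, 349.8, 361 and 494 scaled reads in miR-133b-/-, 228, 205, 153 and 134 in mdx/miR-133b-/-, 332, 275, 276 and 295 in Control and 282, 273, 343 and 249.8 in mdx. The mdx/miR-133b-/- libraries lay below all 12 others and the miR-133b-/- libraries above them, and the difference was -1.21 (SE 0.29, adjusted p = 0.0479). This call was lost with upper quartile factors, no variance trend, a mean of at least 200, a replicate block, limma-voom or the GC and length trend removed, and with 12 of the 16 libraries left out in turn (adjusted p up to 0.179). The call of Dbp was lost with the GC and length trend removed (adjusted p = 0.179).

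The remaining 6 are predicted models or lie near near-identical copies, and are named here because they are the rest of the 8. Of them, 4 lie together on chromosome 2: Zfp970 (177464733 to 177478129), Gm14403 (177498215 to 177509763), Gm14325 (177831791 to 177840336) and Gm14326 (177935993 to 177957297), in a cluster of zinc-finger genes. Zfp970 had 158, 90.7, 179 and 84.3 scaled reads in miR-133b-/-, 0.459, 0.663, 0.578 and 0.658 in mdx/miR-133b-/-, 143, 72.6, 108 and 80.6 in Control and 85.2, 98.5, 46.9 and 73.5 in mdx. Each of these genes was present in all 12 libraries of the other groups and at or near 0 in all 4 mdx/miR-133b-/- libraries. Gm14325 had 1297 reads in the miR-133b-/- libraries and none in the mdx/miR-133b-/- libraries, which makes it at least 511-fold lower against a floor of 3 reads over the group. The ratio of levels was 209-fold for Zfp970 (95% interval 81.1 to 768), 239-fold for Gm14403 (65.8 to 1983) and 86.5-fold for Gm14326 (51.3 to 159), where the intervals cover counting error only. The differences of the effects were -5.86 (SE 0.54, adjusted p = 3.4e-07) for Zfp970, -5.85 for Gm14403, -6.37 for Gm14326 and -7.75 for Gm14325. Genes of such clusters share near-identical sequence, so reads could be split or lost between copies in counting, in any group. The cause of the values near 0 in mdx/miR-133b-/- alone was not tested, and the labels do not give the strain. Gm47283 (chromosome Y) had 165, 252, 136 and 96.2 in miR-133b-/- and 5.04, 16.6, 28.9 and 3.29 in mdx/miR-133b-/-, an 11.8-fold ratio (9.48 to 14.8), with a difference of -3.91 (SE 0.83, adjusted p = 0.016), a call lost with limma-voom (adjusted p = 0.130) or the GC and length trend removed.

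Gm8822, a pseudogene before Dmd on the X chromosome (81820384 to 81822730; Dmd spans 82948870 to 85206141), was the only gene that fell in mdx and was higher without miR-133b. It had 15, 179.9, 127 and 207 scaled reads in miR-133b-/-, 326, 401, 529.6 and 529 in mdx/miR-133b-/-, 138, 145, 166 and 159 in Control and 41.2, 31.8, 31.5 and 45.5 in mdx. All mdx libraries lay below all Control libraries, and all mdx/miR-133b-/- libraries lay above the libraries of every other group. Its log2 fold change was 2.23 (SE 0.52) without miR-133b (1.38 without miR-133b-/- replicate 1) and -2.004 (SE 0.52, adjusted p = 0.00309) with it, and the difference was 4.23 (SE 0.74, adjusted p = 0.00224). Within 5 Mb of Dmd the other listed gene is Gk, glycerol kinase (0.87). The remaining 21 genes with opposite signs were not called in mdx. Among those higher without miR-133b the largest were Trp53i11 (0.999, and -0.28 in mdx), Rp2 (0.97 and -0.01) and Cbl (0.95 and -0.05). Among those lower they were Gm14325, Gm14403, Gm47283 and Psmd12, which stood at 0.03, 0.07, 0.08 and 0.004 in mdx. Psmd12, a regulatory subunit of the proteasome, had 10056, 2830.2, 2943 and 3422 scaled reads in miR-133b-/- and 2175, 1845, 1608 and 1624 in mdx/miR-133b-/-, against 3176, 3202, 3449.7 and 3734 in mdx, and miR-133b-/- replicate 1 stood far above its group.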

How the data were processed

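The deposited signal values cover 831 genes in 16 RNA-seq libraries. The submitters' processing notes name HISAT2, HTSeq and the build GRCm38. Whether counting used strand is not given in the sources used here. Judging by the values, each library's deposited signal is its read count multiplied by a factor of its own, from 0.459 to 1: divided by it, 100% of values were whole within 0.01 read. Libraries were grouped by the code in their title; the description field names another code for 14 of 16. All identifiers matched GENCODE M21.

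Log2(value + 1) was fitted with limma 3.58.1 in R 4.3.3 (1 mean per group over all 16 libraries, variance trend), with Benjamini-Hochberg adjustment over 831 genes at 0.05 and no filter; fold changes on that scale understate low genes. The comparison on which the table appears to be selected got no p-value. The fit was tested on simulated data.

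The members and the 30 gene lists were chosen with earlier results of these data known. Named genes were the 8 furthest in each direction (mean of at least 100 scaled reads, groups not overlapping, protein coding, no predicted model), up to 4 members per list, up to 4 genes per direction in the difference of the effects, and the 4 largest of opposite sign per direction. Further members are given for coverage and were chosen after their values were seen; some list members are not reported here by name. Dmd, Utrn and Mir133b were to be given wherever listed. Alternatives covered scaling factors, pseudocounts of 0.5 and 10, a mean of at least 200, a GC and length trend, a replicate block, limma-voom and leaving out each library. Intervals are exact 95% binomial ones. No 2 libraries of a group looked like 1 library counted again (chi-square per degree of freedom of at least 38.6 in 24 pairs).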

Additional observations from a re-analysis of the deposited data

Results flagged for a closer look

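In 8 of 162 groups of 4 values tested, 1 library stood apart from the other 3 by Dixon's criterion, which chance reaches in about 1 of 20 groups. Myh3 was at 131 scaled reads in miR-133b-/- replicate 1, with the others at 30.8 to 33.5. Dbp was at 775.9 in miR-133b-/- replicate 2, with the others at 1624 to 1883. Thbs4, a tendon and matrix gene, was at 2525 in mdx/miR-133b-/- replicate 1 against 718 to 755. In miR-133b-/- replicate 1 Klf15 was at 169, below the other 3, and Psmd12 at 10060, above them. Gm14403 was at 1.317 in mdx/miR-133b-/- replicate 4 and at 0 in the others. The mean log2 level of the lysosome and phagocytosis genes was 6.576 in miR-133b-/- replicate 4 against 5.66 to 5.80, and that of the miR-133 target list was 7.541 in miR-133b-/- replicate 2 against 7.01 to 7.06.

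The effect of dystrophin loss differed with and without miR-133b, by a called difference, in 8 genes: Gm8822 (4.233 on the log2 scale), Gtf3a (-1.21), Dbp (-2.108), Gm47283 (-3.914), Gm14403 (-5.851), Zfp970 (-5.861), Gm14326 (-6.375) and Gm14325 (-7.752).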

How the results depend on the processing

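The split into 498 higher and 333 lower genes held under all scaling factors, both pseudocounts, limma-voom and every left-out library; with the GC and length trend removed it was 503 and 328. At least 2-fold differences, 549 genes, became 250 with a mean of at least 200, where 466 genes remain and 207 are higher, and 490 to 634 with a library left out. In mdx against Control the 550 calls became 279 with that minimum (138 higher) and 474 to 538 with a library left out. The 8 differences of effects became 14 with relative log expression factors, 1 with the minimum mean, 5 with the trend removed, 6 with limma-voom, and 7 to 110 with a library left out. The share of genes with the same direction, 97.4%, was 93.1% with relative log expression factors and 93.02% with the trend removed. The cause of these changes was not tested, other than the smaller number of genes under the minimum mean.

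The columns of values carry the code of the title, and groups by title separate the means of all 831 genes by at least 1.72-fold. The median absolute log2 fold change was 1.13 by title and 0.18 by description. Grouping by the description field gave 5 differences of at least 2-fold, 0 calls in mdx in either direction, 0 differences of effects and a shared direction of 51.3%. Differences of effects then reversed for Gm8822 (-0.59), Gtf3a (0.22), Dbp (0.077), Gm14403 (0.31), Zfp970 (0.15), Gm14326 (0.82) and Gm14325 (0.24). Values in mdx reversed for Myh3 (-0.76), Mpeg1 (-0.29), C3ar1 (-0.38), Ctss (-0.60), Cyfip2 (-0.43), Ces1d (0.35), Hlf (0.50), Dusp26 (0.0056), Slc1a1 (0.25), Gm8822 (0.89), Gm28653 (-0.0704), Dnm3os (-0.062) and 2310065F04Rik (0.29).

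The replicate numbers do not pair the libraries: deviations of same-numbered libraries correlated at -0.175 to 0.061 without miR-133b and at -0.143 to 0.155 with it. A replicate block gave 541 calls in mdx against 550, 7 differences of effects against 8, and 549 differences of at least 2-fold. Planned fits with edgeR and DESeq2 were not run: the reads recovered from the scaled values were not accepted as deposited counts, and limma-voom was run on them in their place. Total depth is unknown, and genes at a few reads in miR-133b-/- have folds that depend on the added 1.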

Other observations

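Imprinted genes, which are expressed from the copy of 1 parent and many of which act in fetal growth, were looked at after their values were seen. Of 58 such genes 10 are listed, and all 10 were higher in mdx/miR-133b-/- than in miR-133b-/-. Their median log2 fold change was 2.02, against 0.95 over all listed genes and 1.30 over the higher genes. In mdx 8 of the 10 rose against Control, by a median of 1.22. Of all listed genes 44.5% rose there, and of the higher genes 74.3%, which had a median of 1.03. Zdbf2 had 225, 296, 97.8 and 148 scaled reads in miR-133b-/- and 1481, 1051, 1044 and 1092 in mdx/miR-133b-/- (2.70, SE 0.29). The mdx/miR-133b-/- libraries all lay above the miR-133b-/- libraries, and they overlapped those of mdx. Igf2, a fetal growth factor, had 1065, 2874, 680.5 and 915 and 7469.5, 8688, 6139.8 and 4991 (2.51, SE 0.36). Its highest miR-133b-/- value, in replicate 2, was below all mdx/miR-133b-/- values. Peg3, a zinc-finger protein, and its neighbour Zim1 stood at 1.57 (SE 0.20) and 2.17 (SE 0.21), and Usp29, of the same cluster, at 0.94 (SE 0.28). Plagl1, a transcription factor known to act on other imprinted genes, was at 1.86 (SE 0.35), Peg10 at 2.40 (SE 0.39), Mirg at 2.36, Ppp1r9a at 1.02 and Grb10, an adaptor of the insulin receptor, at 0.91. Usp29 and Mirg were the 2 not called in mdx (adjusted p = 0.087 and 0.0721). No difference between the effects with and without miR-133b was called in these 10 genes.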
